A study of Macaca fascicularis with 28 samples.

Results

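The genes described here build and move the actin core of microvilli and of the stereocilia of hair cells. They are the actin bundlers espin (ESPN), fascin (FSCN1), villin (VIL1), plastin 1 (PLS1) and plastin 3 (PLS3), the membrane linker ezrin (EZR), and the unconventional myosins MYO1A, MYO6, MYO7A and MYO15A. Every probe set (a group of short probes to 1 transcript) that carried one of these symbols was taken, the symbol being the name in the gene list of the study where it gave one and the name in the platform annotation otherwise. This gave 19 of the 52024 probe sets on the array, for 9 of the 10 genes. ESPN, FSCN1, PLS1 and MYO1A had 1 probe set each, PLS3, MYO6 and MYO7A had 2, EZR had 4 and VIL1 had 5. MYO15A was named by neither source and was not analysed here. The ESPN and FSCN1 probe sets were named by the list of the study only, and that list was built from probe sets that were higher in taste buds (TB) than in epithelium on these same arrays. Their higher calls against epithelium are therefore not independent evidence of a direction. The other 17 probe sets were named by the annotation.

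Tongue tissue of 10 cynomolgus macaques (Macaca fascicularis), 3 males and 7 females aged 2.6 to 4.5 years, was cut out by laser and hybridized to 28 Affymetrix Rhesus Macaque Genome arrays. The first set of arrays, 20 samples from 6 animals, comprised TB of circumvallate papillae (CV, n = 4) and TB of fungiform papillae (FG, n = 6), each with nontaste lingual epithelium (LE) from beside the same papillae of the same animals (n = 4 and n = 6). The second set held 8 samples of 4 other animals, the top and the bottom fraction of CV TB (n = 4 each), and was processed separately before all arrays were normalized together. CV samples and their LE came from 2 males and 2 females aged 2.6 to 4.0 years, FG samples and their LE from 2 males and 4 females aged 2.6 to 4.5 years, and the fractions from 1 male and 3 females aged 3.0 years. A sample pools material of many sections of 1 animal, and a whole TB holds all of its cell types. In such samples fewer cells of a type and less RNA per cell cannot be told apart. Animals are numbered 1 to 6 in the first set and 7 to 10 in the second, and CV tissue came from animals 1, 3, 4 and 5.

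Microvilli are finger-like protrusions held up by a bundle of parallel actin filaments. Espin, villin, fascin and the plastins tie the filaments together, ezrin fastens the bundle to the membrane, and MYO1A bridges bundle and membrane in the brush border of the gut. Stereocilia of inner ear hair cells are enlarged relatives of microvilli. They depend on espin and PLS1 for their bundle, on MYO6 at their base, and on MYO7A and MYO15A for their links and their growth, and mutations in several of these genes cause deafness. Taste receptor cells extend microvilli into the taste pore, where tastants reach their receptors.

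Values are deposited intensities in arbitrary units on a linear scale, and 25 units was the minimum level used in the study. The array medians ranged from 13.6 to 16.7 units, and 37.3% to 40.8% of probe sets reached 25 units on an array. Summed levels of 9 type II taste cell markers were 11363 to 26449 units in the 18 TB samples and 200 to 325 units in the 10 LE samples. The 8 of these markers that were tested all had probe sets named by the list of the study, so this separation is not independent evidence. Summed levels of 11 differentiated keratinocyte markers were 65753 to 90684 units in LE and 2866 to 19713 units in TB, with the highest TB value in FG of animal 4. By limma 9 of these 11 keratinocyte markers were lower in CV than in LE and 10 of 11 were lower in FG. Fibroblast markers had median sums of 2862 units in CV and 2343 in FG, against 863 and 871 in the adjacent LE, with overlapping ranges. Endothelial markers had median sums of 718 and 1002 units, against 213 and 152 in LE, and overlapped in FG only. These sums differ between the groups that are compared below, and their part in the results was not tested. Log2 changes below are differences of log2 intensity ± standard error, and a probe set counted as changed, or called, where its p adjusted over all probe sets tested did not exceed 0.05. With the arrays centred on their medians, all log2 changes shifted by -0.22 for CV against LE and by -0.44 for FG against LE.

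Of the 19 probe sets, 17 passed the filter on low values in the first array set, for 8 genes. MYO1A and 1 probe set of MYO7A did not pass. Against adjacent LE, 2 of the 17 were higher in CV, while 17.3% of all 26176 probe sets tested were called higher. A further 8 of the 17 were lower, against a share of 18% of all probe sets. In FG, 3 of the 17 were higher than in adjacent LE, while 21.1% of all probe sets were called higher, and 5 were lower, against 20.2% of all. With the arrays centred on their medians 2 were higher in FG and 9 lower, and of all calls 3719 were higher and 8415 lower, against 5516 and 5279 without centring. The median log2 change of the member probe sets was -1.12 in CV and -0.44 in FG, and over all probe sets tested it was -0.08 and 0.05. In both papilla types ESPN and FSCN1 were the strongly higher members. Both were named by the list built from probe sets higher in TB on these arrays. ESPN also passed the filter through TB only. Their higher calls are therefore not independent evidence. The lower probe sets were of VIL1, EZR, MYO6 and PLS3 in CV and of VIL1, EZR and MYO6 in FG. VIL1 MmuSTS.4476, MmugDNA.36159 and MmugDNA.40148 and PLS3 Mmu.2800 passed the filter through LE. At most 1 sample of CV and 1 of FG reached 25 units for each of them. Their lower calls are therefore not independent of the filter. Several probe sets share a gene and are not independent, so these counts and medians describe probe sets and not genes.

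**Figure D1:**
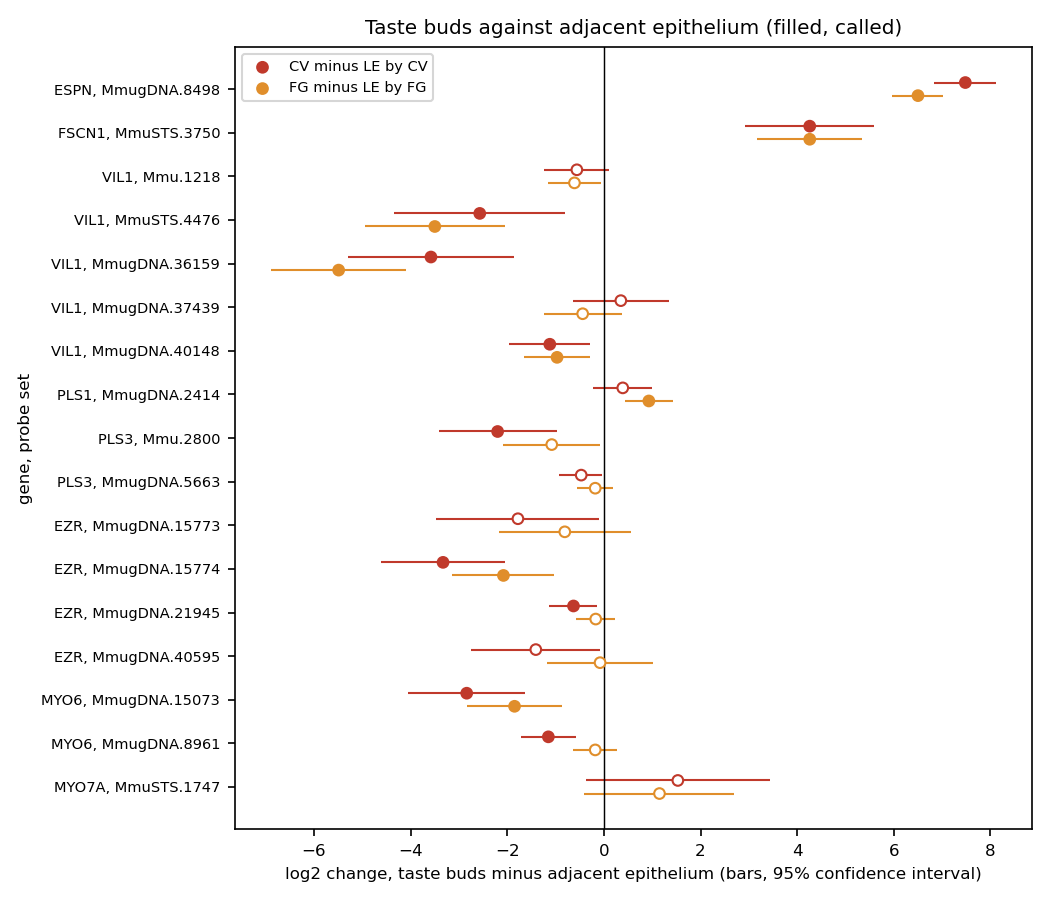
Log2 change of TB minus adjacent LE (x axis) for each of the 17 member probe sets tested (y axis), for CV with red and FG with orange points, with bars for the 95% confidence interval and filled points for called probe sets. ESPN lies at 7.48 and 6.50 and FSCN1 at 4.26 in both, while VIL1 probe set MmugDNA.36159 lies at -3.58 and -5.49.

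ESPN, which cross-links actin filaments into tight bundles and is needed for stereocilia of normal length, separated TB from LE completely (probe set MmugDNA.8498, all identifiers here being given without their ending). In CV its intensities were 1612, 2150, 1670 and 1462 units in animals 1, 3, 4 and 5, and in the LE of these animals 9.97, 10.3, 11.2 and 7.31 units. In FG it ranged from 1068 to 1771 units with a median of 1528, and in the LE beside it from 10.4 to 21.3 units with a median of 16.6. No LE sample reached 25 units, and the lowest TB value over all 18 samples was 547 units. The log2 change was 7.48 ± 0.30 in CV (adjusted p = 1.25e-09, higher in 4 of 4 animals) and 6.50 ± 0.24 in FG (adjusted p = 2.62e-10, higher in 6 of 6). With values under 25 raised to 25, this was at least 68.2-fold in CV and at least 56.8-fold in FG. In the order of medians, CV (1641 units) and FG (1528 units) overlapped and did not differ beyond their spread (0.23 ± 0.28, 95% confidence interval -0.38 to 0.84, adjusted p = 0.848). The fractions followed, the top at 669 to 1504 units and the bottom at 547 to 818 units. Top and bottom overlapped with each other, while all bottom values lay below all CV and FG values. The fractions come from other animals and another array set, so this order cannot be told apart from array set.

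FSCN1, which bundles filaments in filopodia and other slender protrusions, was the other member with a large difference (MmuSTS.3750). CV held 810, 1402, 1164 and 1087 units in animals 1, 3, 4 and 5, and the adjacent LE 101, 31.0, 74.7 and 45.7 units. FG ranged from 2124 to 3343 units with a median of 2835, and its LE from 44.3 to 710 units with a median of 155. TB and LE did not overlap in either papilla type, although LE of animal 6 reached 710 units, against a lowest FG value of 2124 units. The log2 change was 4.26 ± 0.63 in CV (adjusted p = 0.000153, 19.2-fold) and 4.26 ± 0.51 in FG (adjusted p = 2.35e-05, 19.1-fold), higher in every animal. All 4 CV values lay below all 6 FG values, yet the paired difference of -1.27 ± 0.60 missed the threshold (adjusted p = 0.437), and the FSCN1 level in LE was also lower beside CV than beside FG in 4 of 4 animals (-1.28 ± 0.60, adjusted p = 0.295). The change against adjacent LE differed by 0.00 ± 0.81 between CV and FG (95% confidence interval -1.73 to 1.74).

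**Figure D2:**
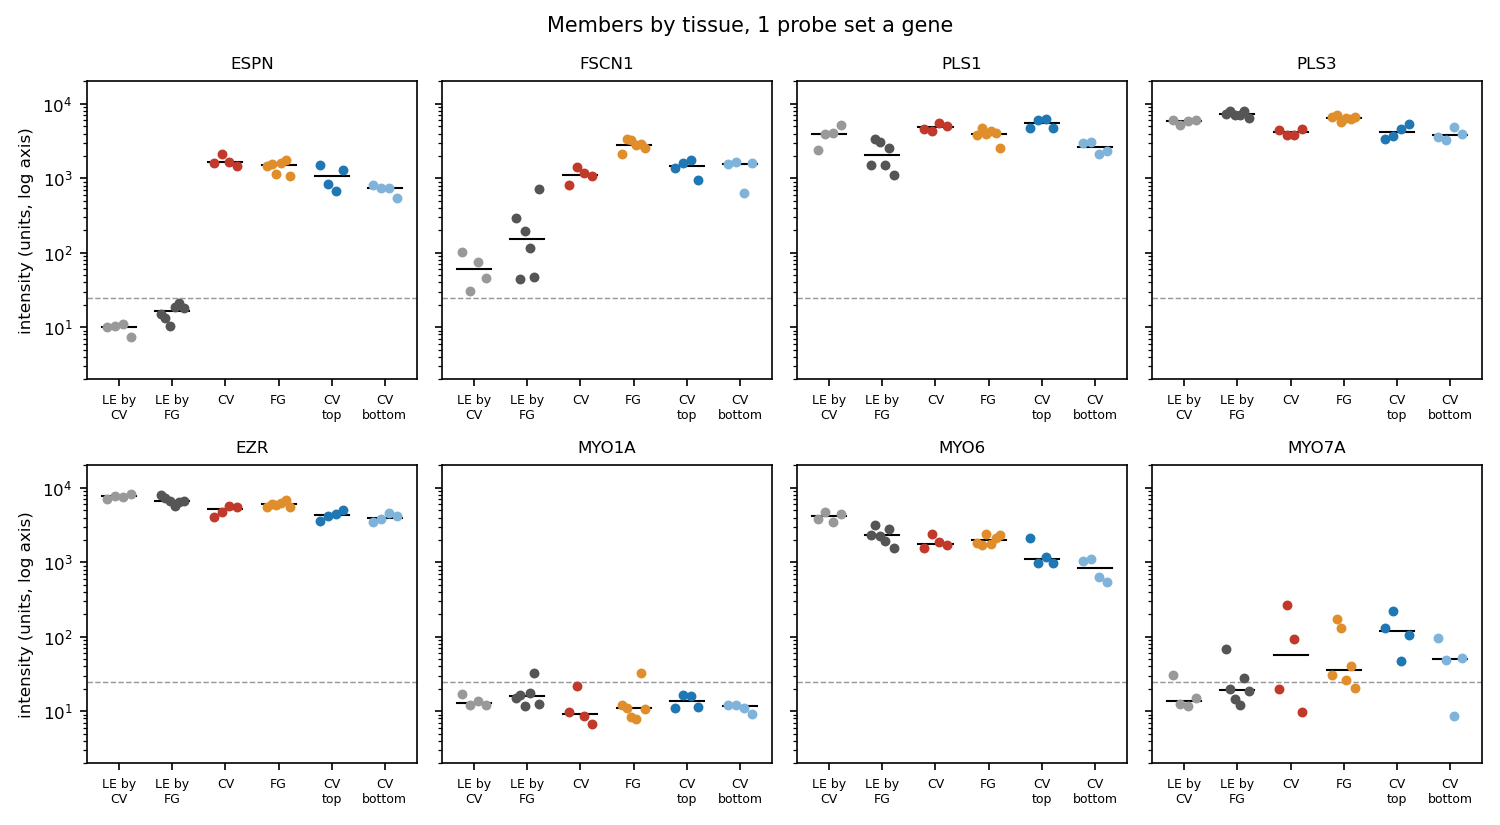
Intensity (y axis, log scale, units) in every sample of the 6 groups (x axis) for 1 probe set of each of 8 members, with a line at the median of a group and a dashed line at 25 units. ESPN is under 25 units in all LE samples and at 547 or more in all TB samples, PLS1, PLS3, EZR and MYO6 are at 541 or more in all samples, and MYO1A reaches at most 33.1.

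VIL1, the villin of intestinal brush borders, which bundles and severs actin filaments, had 5 probe sets that did not behave alike. Probe set MmugDNA.36159 gave the clearest values. LE beside FG ranged from 42.7 to 829 units with a median of 452, and FG from 5.04 to 9.64 units with a median of 7.10. LE beside CV held 306, 127, 129 and 540 units in animals 1, 3, 4 and 5, and CV held 9.17, 6.43, 146 and 15.3 units. Without animal 4, whose CV sample reached 146 units, CV and LE did not overlap. The log2 change was -5.49 ± 0.65 in FG (adjusted p = 2.06e-05, lower in 6 of 6 animals, at least 12.9-fold) and -3.58 ± 0.80 in CV (adjusted p = 0.0033, lower in 3 of 4, at least 5.87-fold). Without animal 4 the CV change was -4.84 (adjusted p = 0.00029), and by the methods' paired t-test over all 4 animals the CV call was lost (adjusted p = 0.16).

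The other VIL1 probe sets were dim. MmuSTS.4476 stayed between 3.72 and 7.67 units in CV and between 3.85 and 5.44 units in FG, while LE ranged from 8.46 to 137 units beside CV and from 5.72 to 255 units beside FG. It was lower in CV (-2.57 ± 0.83, adjusted p = 0.0263) and in FG (-3.50 ± 0.68, adjusted p = 0.0012). The CV call was lost without animal 1 (-1.95, adjusted p = 0.155), animal 4 (-2.68, 0.0687) or animal 5 (-2.28, 0.103), and with values under 25 raised to 25 (-0.89, adjusted p = 0.281). MmugDNA.40148 reached 9.43 to 21.8 units in CV and 23.7 to 35.7 in the LE beside it, and was called lower in CV (-1.12 ± 0.39, adjusted p = 0.0393) and FG (-0.97 ± 0.32, adjusted p = 0.0258). In CV that call was lost without animal 3 (adjusted p = 0.104), 4 (0.17) or 5 (0.207), and in FG without animal 2 (0.0975), 3 (0.0766), 4 (0.0605) or 5 (0.0607). With values under 25 raised to 25 both calls ended, at -0.24 in CV (adjusted p = 0.609) and -0.57 in FG (adjusted p = 0.0956). Mmu.1218 changed by -0.56 ± 0.31 in CV (adjusted p = 0.182) and -0.61 ± 0.25 in FG (adjusted p = 0.0675), the latter being called with the arrays centred (-1.05, adjusted p = 0.0134). MmugDNA.37439, the one with the highest mean log2 value, at 12.1 to 116 units over all samples, changed by 0.35 ± 0.46 in CV (adjusted p = 0.593) and -0.44 ± 0.38 in FG (adjusted p = 0.371). Over the 28 samples its log2 values correlated at -0.10 with those of MmugDNA.36159, while the latter correlated at 0.81 with Mmu.1218 and at 0.76 with MmuSTS.4476. These points share arrays and tissue groups, so the coefficients are descriptions. The 3 called probe sets were lower in TB and 2 were not called, and no probe set of VIL1 was called higher. The 3 called probe sets passed the filter through LE, so their direction is not independent evidence.

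**Figure D3:**
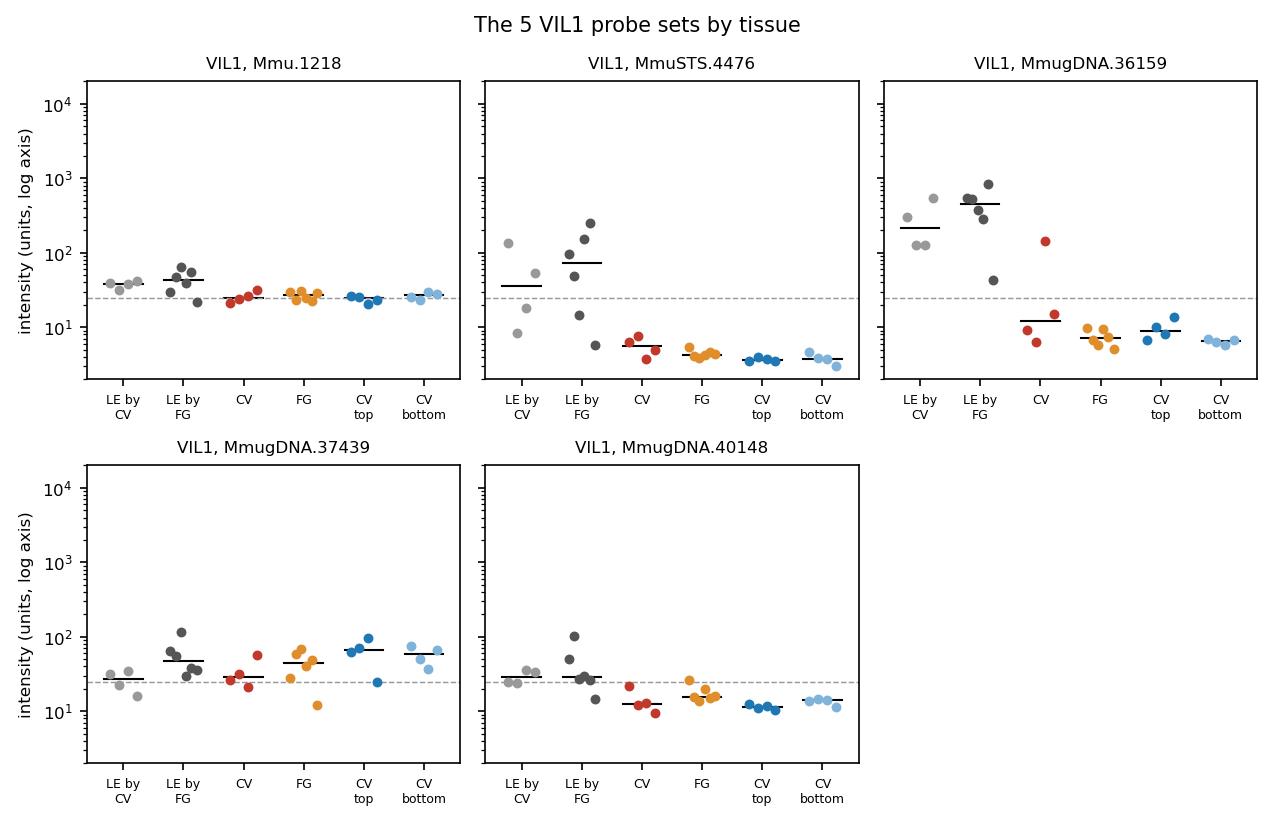
Intensity (y axis, log scale, units) of each of the 5 VIL1 probe sets in every sample of the 6 groups (x axis), with a line at the median of a group and a dashed line at 25 units. MmugDNA.36159 falls from 42.7 to 829 units in LE beside FG to 5.04 to 9.64 units in FG, while MmugDNA.37439 overlaps between TB and LE.

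PLS1, the plastin (fimbrin) of intestinal microvilli and hair cell stereocilia, was present at 1116 units or more in every sample (MmugDNA.2414). FG ranged from 2565 to 4805 units with a median of 3996, and the adjacent LE from 1116 to 3370 units with a median of 2048. The groups overlapped, but FG was higher in 6 of 6 animals, with a log2 change of 0.93 ± 0.23 (adjusted p = 0.00605, 1.91-fold). The call was lost with the arrays centred on their medians (0.49, adjusted p = 0.158) and with all LE samples as 1 group (0.63, adjusted p = 0.069). CV held 4668, 4369, 5511 and 5111 units in animals 1, 3, 4 and 5 and the adjacent LE 2405, 3900, 4038 and 5147 units. This change of 0.39 ± 0.28 was not called (95% confidence interval -0.22 to 1.00, adjusted p = 0.305), but with all LE samples as 1 group it did (0.85, adjusted p = 0.0418). PLS1 was also higher in LE beside CV than in LE beside FG in 4 of 4 animals, by 0.83 ± 0.27 (adjusted p = 0.14). Summed levels of 6 minor salivary gland markers differ along the same contrasts, at 2258 to 3844 units in LE beside CV, 201 to 958 in LE beside FG, 211 to 1964 in CV and 73.2 to 194 in FG, and their part in the LE and papilla values of PLS1, MYO6, FSCN1 and PLS3 was not tested.

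PLS3, the plastin of most nonhematopoietic tissues, was high everywhere by its brighter probe set MmugDNA.5663. CV held 4411, 3847, 3864 and 4561 units in animals 1, 3, 4 and 5 and the adjacent LE 6145, 5175, 5809 and 6024 units, and the groups did not overlap. The log2 change was -0.47 ± 0.21 and missed the threshold (adjusted p = 0.0918). It passed with the arrays centred on their medians (-0.69, adjusted p = 0.049), with all LE samples as 1 group (-0.65, adjusted p = 0.0185) and with values under 25 raised to 25 (adjusted p = 0.028). In FG the range was 5758 to 7115 units and in its LE 6466 to 8015 units, a change of -0.18 ± 0.17 (adjusted p = 0.412), which became -0.62 (adjusted p = 0.0263) with the arrays centred. CV lay below FG in 4 of 4 animals without overlap, by -0.62 ± 0.20 (adjusted p = 0.201). The dimmer probe set Mmu.2800 stayed under 25 units in every TB sample and reached 85.9 units in LE beside CV. It was called lower in CV (-2.20 ± 0.57, adjusted p = 0.00841), but animal 1 had 11.3 units in both tissues. The call was lost without animal 3 (-1.68, adjusted p = 0.0602) or animal 5 (-1.70, 0.0833), and with values under 25 raised to 25 (-0.82, adjusted p = 0.103). In FG it changed by -1.08 ± 0.46 (adjusted p = 0.0765), or by -1.52 (adjusted p = 0.0154) with the arrays centred.

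EZR, which ties actin filaments to the plasma membrane in microvilli, had 4 probe sets. The brightest, MmugDNA.21945, held 4039, 4744, 5729 and 5546 units in CV of animals 1, 3, 4 and 5 and 7162, 7831, 7509 and 8385 units in the adjacent LE. The groups did not overlap, and the difference of -0.63 ± 0.23 (1.55-fold lower) lay just inside the threshold (adjusted p = 0.0447). Leaving out animal 1 (adjusted p = 0.133), 2 (0.0562), 3 (0.144), 4 (0.0951) or 5 (0.125) ended the call, as did taking all LE samples as 1 group (-0.53, adjusted p = 0.053). In FG the same probe set ranged from 5501 to 6870 units, against 5638 to 7976 in LE, and changed by -0.17 ± 0.19 (adjusted p = 0.489), or by -0.61 (adjusted p = 0.0205) with the arrays centred. A second probe set, MmugDNA.15774, differed much more. It held 30.3, 28.4, 38.0 and 76.9 units in CV and 770, 315, 235 and 451 units in the adjacent LE, and it was lower in CV (-3.33 ± 0.60, adjusted p = 0.000765, 10.1-fold). By the methods' paired t-test it missed the threshold in CV (adjusted p = 0.0519) and in FG (adjusted p = 0.0759). In FG it ranged from 24.1 to 210 units, against 65.4 to 447 in LE, and was lower in 5 of 6 animals (-2.08 ± 0.49, adjusted p = 0.00449). MmugDNA.15773 and MmugDNA.40595 were not called in either tissue. Their changes in CV were -1.78 ± 0.79 (adjusted p = 0.093) and -1.41 ± 0.62 (adjusted p = 0.0932), and both passed the test in some settings, without animal 1 for the former (-1.76, adjusted p = 0.0335) and without animal 3 for the latter (-2.12, adjusted p = 0.0303).

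MYO6, the minus-end directed myosin that anchors membrane at the base of stereocilia and moves endocytic vesicles, was lower in CV by both of its probe sets. MmugDNA.8961 held 1539, 2373, 1858 and 1698 units in CV of animals 1, 3, 4 and 5 and 3882, 4678, 3435 and 4464 units in the adjacent LE. No CV value reached the lowest LE value, and the log2 change was -1.15 ± 0.26 (adjusted p = 0.00406, 2.22-fold lower). With all LE samples as 1 group it was -0.70 (adjusted p = 0.0723). In FG this probe set ranged from 1719 to 2386 units and in its LE from 1542 to 3135 units, a change of -0.18 ± 0.22 (95% confidence interval -0.65 to 0.28, adjusted p = 0.513). The CV change minus the FG change was -0.96 ± 0.34 and did not pass the test (adjusted p = 0.195), so a difference between papilla types was not shown. LE beside CV was higher than LE beside FG in 4 of 4 animals without overlap (0.82 ± 0.25, adjusted p = 0.118). The dimmer probe set MmugDNA.15073 held 81.7, 29.5, 199 and 33.8 units in CV and 1136, 336, 295 and 375 units in the adjacent LE (-2.84 ± 0.56, adjusted p = 0.00153), a call that was lost by the methods' paired t-test (adjusted p = 0.109). It was also lower in FG in 6 of 6 animals (-1.85 ± 0.46, adjusted p = 0.00615), with 20.5 to 139 units in FG and 50.7 to 445 in LE. The highest FG value belonged to animal 4, the FG sample with the most differentiated keratinocyte marker signal, and a link between them was not tested.

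MYO7A, which holds hair bundles together and underlies Usher syndrome, was low and scattered in TB (MmuSTS.1747). CV held 19.7, 270, 93.0 and 9.77 units in animals 1, 3, 4 and 5, and the adjacent LE 30.5, 12.5, 11.9 and 15.3 units. FG held 30.8, 175, 130, 26.2, 40.3 and 20.6 units in animals 1 to 6, with 12.0 to 69.3 units in LE. In CV, 2 of 4 animals were above their own LE and 2 below, and in FG 5 of 6 were above. The log2 changes of 1.53 ± 0.89 in CV (95% confidence interval -0.38 to 3.43, adjusted p = 0.196) and 1.15 ± 0.73 in FG (adjusted p = 0.219) did not pass the test. The other MYO7A probe set, MmugDNA.9694, was under 25 units in all samples but LE beside CV of animal 5 (50.2 units) and was not tested. MYO1A, the brush border myosin 1, was under 25 units in 26 of 28 samples (MmugDNA.17229). The 2 samples above it were FG and its LE of animal 5, both at 33.1 units, and the gene was not tested.

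**Figure D4:**
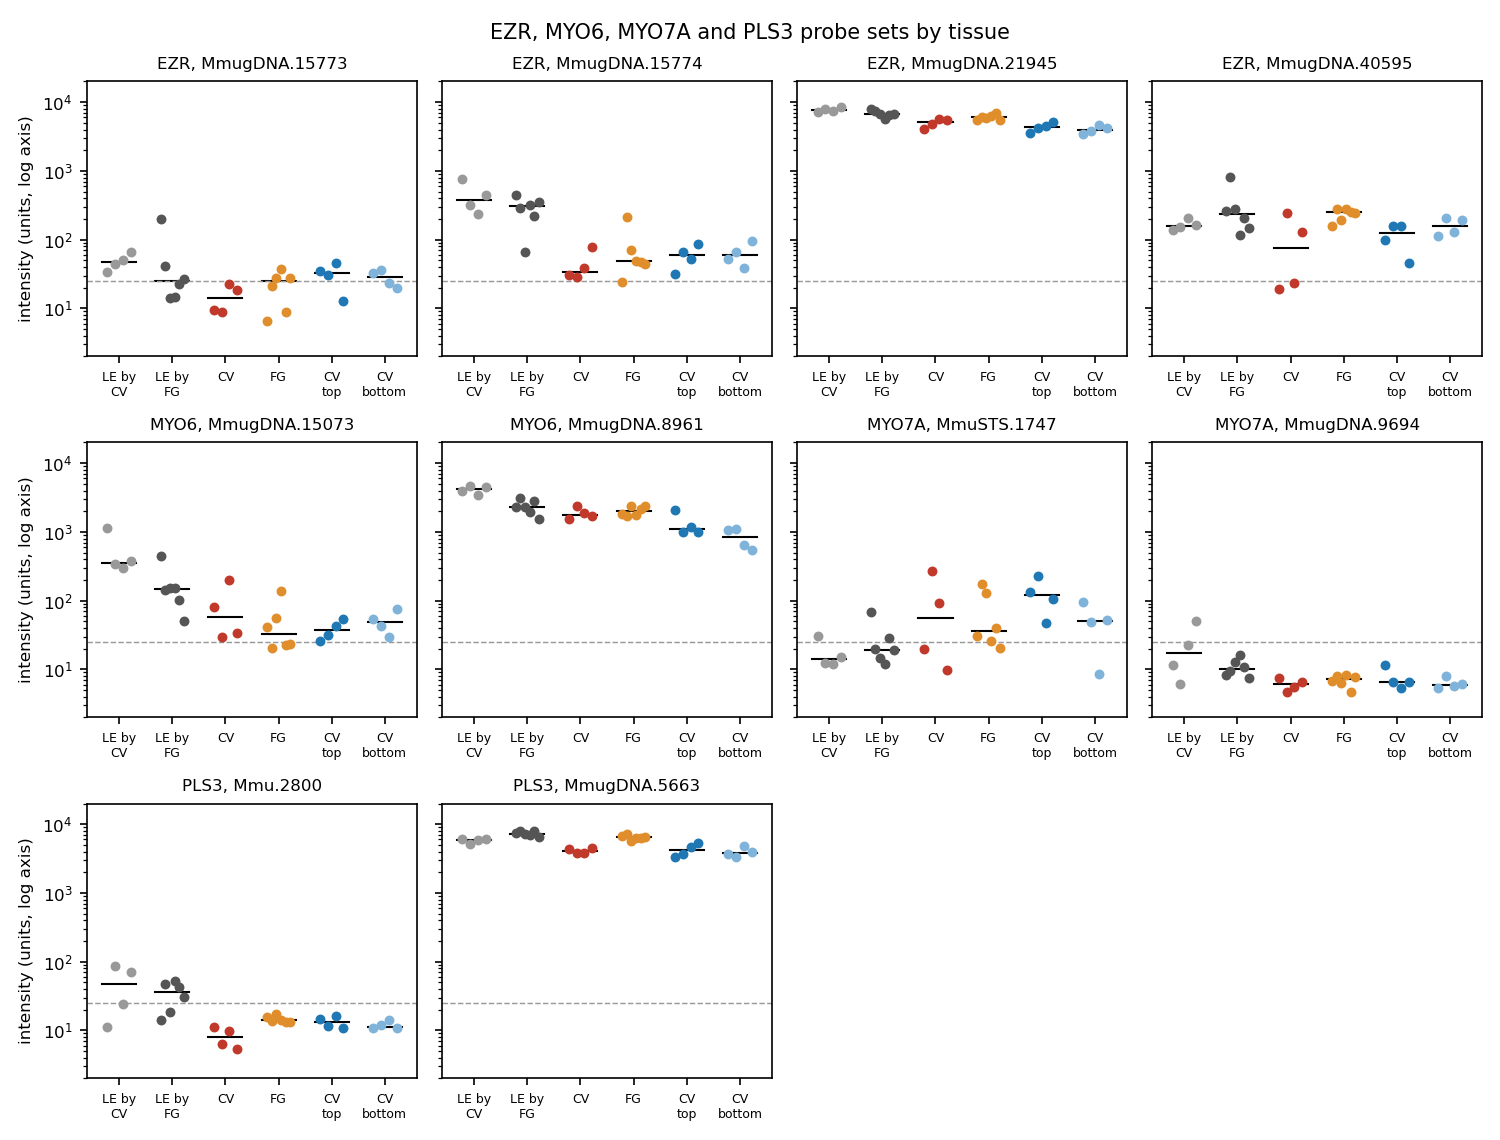
Intensity (y axis, log scale, units) of the EZR, MYO6, MYO7A and PLS3 probe sets in every sample of the 6 groups (x axis), with a line at the median of a group and a dashed line at 25 units. The brighter EZR, MYO6 and PLS3 probe sets are at 541 units or more in all samples, while MmugDNA.15774 of EZR and MmugDNA.15073 of MYO6 are lower in TB than in LE.

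The direct comparisons of the papilla types gave no member call. Between CV and FG TB 0 of 17 member probe sets were called in either direction by limma, and 0.378% of all probe sets were called higher and 0.493% lower. At an unadjusted p under 0.05, where 5.15% of all were higher and 6.47% lower, 2 of 17 were lower in CV, namely PLS3 (MmugDNA.5663) and EZR (MmugDNA.40595, -1.74 ± 0.60, adjusted p = 0.238). Between LE beside CV and LE beside FG 0 of 17 were called by limma, against 0.97% of all probe sets higher and 0.294% lower. At an unadjusted p under 0.05, 10.8% of all probe sets were higher and 6.33% lower, and of the 17 members 3 were higher (both MYO6 probe sets and PLS1) and 2 were lower (ESPN, which was under 25 units in both, and VIL1 MmugDNA.37439). The CV change minus the FG change was called for 0 of 17 by limma, against 0.271% higher and 0.6% lower of all, and at an unadjusted p under 0.05 1 was higher (ESPN, 0.98 ± 0.38, adjusted p = 0.245) and 1 lower (MYO6 MmugDNA.8961), beside 5.15% higher and 9.79% lower of all. The LE values of ESPN in this difference were under 25 units beside both papilla types. Over the settings tried the ESPN difference went as low as 0.26. With Benjamini-Hochberg adjustment, the methods' paired t-test also called 0 member probe sets for CV against FG and for the LE groups, and 0 of all probe sets tested.

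The tops and bottoms of the same CV TB were compared within animals. The microvilli of taste cells lie at the top, toward the pore. Of the 19 probe sets 13 passed the filter, and limma called 0 of them, while 1.68% of 21167 probe sets were higher in the top and 1.46% lower. At an unadjusted p under 0.05, 2 of 13 were higher (PLS1 and MYO7A) and 0 lower, while 13.6% of all probe sets were higher and 7.09% lower at that limit. PLS1 held 4797, 6139, 6206 and 4692 units in the tops of animals 7 to 10 and 2969, 3035, 2157 and 2356 units in the bottoms. The groups did not overlap, the top was higher in 4 of 4 animals, and the log2 change was 1.06 ± 0.26 (95% confidence interval 0.42 to 1.69, 2.08-fold), which missed the threshold (adjusted p = 0.0872). Without the animal as a block it passed (adjusted p = 0.0364). MYO7A held 133, 225, 47.1 and 107 units in the tops and 96.9, 49.1, 8.66 and 51.5 units in the bottoms, higher in 4 of 4 animals although the groups overlapped (1.54 ± 0.40, adjusted p = 0.0963). ESPN held 1504, 853, 669 and 1276 units in the tops and 818, 738, 745 and 547 in the bottoms, and 3 of 4 animals were higher in the top (0.54 ± 0.32, 95% confidence interval -0.23 to 1.30, adjusted p = 0.397). MYO6 (MmugDNA.8961) held 2116, 994, 1192 and 986 units in the tops and 1055, 1113, 637 and 541 in the bottoms (0.65 ± 0.30, adjusted p = 0.285). Its other probe set, MmugDNA.15073, went the other way, at 25.8, 31.9, 42.5 and 54.2 units in the tops and 54.6, 42.0, 30.0 and 74.7 in the bottoms (-0.36 ± 0.32, adjusted p = 0.587, higher in the top in 1 of 4). FSCN1 was 0.11 ± 0.40 (adjusted p = 0.909), and the brightest EZR, PLS3 and VIL1 probe sets changed by between 0.04 and 0.12. Other markers moved with this contrast. Type II markers summed to 22071 to 26449 units in tops against 11363 to 16368 in bottoms. For 6 fibroblast markers the sums were 437 to 547 units in tops and 3284 to 6682 in bottoms. Type III marker sums were 6350 to 8170 units in tops and 2612 to 5365 in bottoms. Tuft cell marker sums were 9959 to 10850 and 3469 to 5592 units, and leukocyte marker sums 2713 to 4373 and 1110 to 2421 units. Basal keratinocyte markers went the other way, at 984 to 1958 units in tops and 2785 to 5425 in bottoms. The part of these markers in the PLS1 and MYO7A values was not tested.

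**Figure D5:**
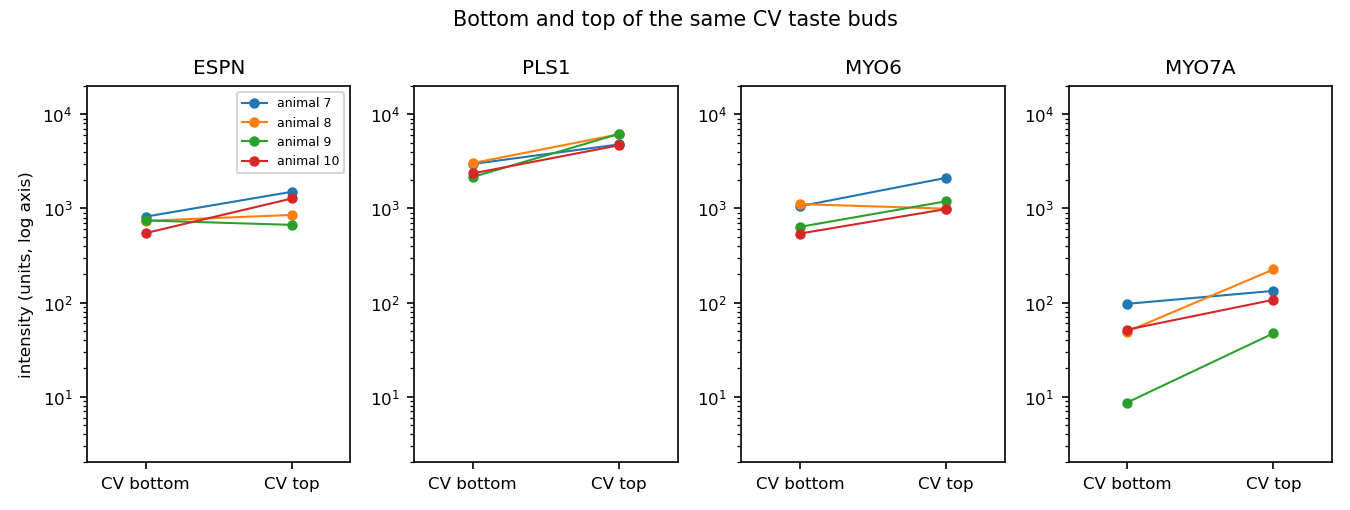
Intensity (y axis, log scale, units) in the bottom and top fraction of CV TB of 4 animals (lines join the fractions of 1 animal) for 1 probe set each of ESPN, PLS1, MYO6 (MmugDNA.8961) and MYO7A. PLS1 and MYO7A are higher in the top in 4 of 4 animals and ESPN and this MYO6 probe set in 3 of 4, while the MYO6 probe set not drawn is higher in 1 of 4.

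Against LE beside CV, the fractions are compared with a limit. They come from other animals and another array set, so tissue and array set cannot be told apart. All 28 samples were fitted together, and 17 member probe sets were tested. Of these, 3 were higher in the top (25.1% of all probe sets were) and 8 were lower (19.3% of all). In the bottom 2 were higher (23.1% of all) and 9 were lower (19% of all). ESPN was higher by 6.74 ± 0.27 in the top and by 6.20 ± 0.27 in the bottom, and FSCN1 by 4.59 ± 0.59 and 4.48 ± 0.59, with adjusted p-values of 7.47e-16, 7.23e-15, 1.04e-06 and 1.63e-06. The third higher member in the top was MYO7A (MmuSTS.1747), by 2.77 ± 0.87 (adjusted p = 0.0121, at least 4.22-fold), while its change in the bottom was 1.23 ± 0.87 (adjusted p = 0.262). Its top samples, from 47.1 units, did not overlap with LE beside CV, but LE beside FG reached 69.3 units. The other MYO7A probe set was at 5.43 to 11.4 units in the top and was not tested. MYO6 was lower by both probe sets in both fractions, for the brighter by -1.70 ± 0.28 in the top (adjusted p = 3.2e-05) and -2.36 ± 0.28 in the bottom (adjusted p = 3.95e-07). The brightest EZR probe set was lower by -0.84 ± 0.19 (adjusted p = 0.00107) and -0.96 ± 0.19 (adjusted p = 0.000278). VIL1 MmugDNA.37439 and Mmu.1218 were not called in either fraction. In the top the former was higher by 1.20 ± 0.50 (adjusted p = 0.055). In the bottom it was higher by 1.16 ± 0.50 (adjusted p = 0.0665). The latter changed by -0.63 ± 0.27 (adjusted p = 0.0575) and -0.48 ± 0.27 (adjusted p = 0.149). With an animal left out, adjusted p fell to 0.0183 and 0.0424 for the former and to 0.0289 and 0.0922 for the latter. The 3 VIL1 probe sets called lower in CV were called lower in both fractions, as was PLS3 Mmu.2800. Those passed the filter through LE here too, and not all of these calls held. With low values raised to 25, VIL1 MmuSTS.4476 lost both (adjusted p = 0.215 and 0.219), as did VIL1 MmugDNA.40148 (-0.24 in each, adjusted p = 0.544 in the top and 0.546 in the bottom). MmugDNA.40148 also lost the bottom call without animal 4 (adjusted p = 0.0799), 5 (0.0639) or 10 (0.063), and PLS3 Mmu.2800 the top call without animal 3 (-1.04, adjusted p = 0.0775) or 5 (-1.14, 0.0735). The brighter PLS3 probe set was called in the bottom (-0.57 ± 0.19, adjusted p = 0.0182) and missed the threshold in the top (-0.46 ± 0.19, adjusted p = 0.051). In the bottom its call was lost without animal 1 (-0.54, adjusted p = 0.051), 4 (-0.57, 0.0521), 5 (-0.55, 0.0506) or 8 (-0.49, 0.07). PLS1 was not called in either fraction (0.54 ± 0.31 and -0.52 ± 0.31), but with all LE samples as 1 group it was called higher in the top (1.07, adjusted p = 0.00507), and with the arrays centred lower in the bottom (-0.92, adjusted p = 0.0353).

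Genes with related tasks were read from lists, with 1 probe set a gene. Of 19 other bundlers and capping proteins tested, 5 were higher and 7 lower in CV, and 5 higher and 8 lower in FG, where of all probe sets 17.3% were higher and 18% lower in CV, and 21.1% higher and 20.2% lower in FG. All 5 that were higher had their probe set named by the list of the study, which chose it for being higher in TB. The median log2 change of the list was -0.30 in CV and -0.40 in FG. The advillin gene AVIL, a villin relative known from sensory neurons, was under 14 units in LE beside CV and between 2043 and 2805 units in CV (8.17 ± 0.29, adjusted p = 4.83e-10), and the change in FG was 7.85 ± 0.24 (adjusted p = 3.61e-11). EPS8L3, of the EPS8 family of capping proteins, was higher in FG by 3.81 ± 0.50 (adjusted p = 5.66e-05). EPS8L1, of the same family, was lower in both (-5.13 ± 0.64 in CV and -5.71 ± 0.52 in FG, adjusted p = 3.53e-05 and 1.63e-06). BAIAP2L1, a membrane-bending partner of that family, was lower in both too (-4.41 ± 0.71 and -4.42 ± 0.58, adjusted p = 0.000326 and 5.34e-05). COBL, an actin nucleator of microvilli, was lower in CV (-4.64 ± 0.75, adjusted p = 0.000321).

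Of 8 other membrane linkers and microvillar scaffolds tested, 2 were higher and 1 lower in CV, and 4 higher and 1 lower in FG, beside 17.3% and 18% of all probe sets in CV and 21.1% and 20.2% in FG. CDHR2, a cadherin that links the tips of brush border microvilli, was higher in CV by 3.62 ± 0.54 (adjusted p = 0.000179) and in FG by 1.23 ± 0.44 (adjusted p = 0.039), and it was the 1 gene of its list called between the fractions, with a higher level in the top (1.78 ± 0.30, adjusted p = 0.0401). Its probe set, too, was named by the list of the study. Moesin (MSN), a relative of ezrin, was higher in CV by 2.04 ± 0.36 (adjusted p = 0.000655) and in FG by 1.27 ± 0.29 (adjusted p = 0.00392). CLIC4, an ezrin-associated protein of the chloride channel family, was lower in CV (-1.77 ± 0.33, adjusted p = 0.000933), and PROM1, which marks membrane protrusions, was higher in FG by 1.43 ± 0.30 (adjusted p = 0.00222).

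Of the 22 genes of the stereocilium list, 13 had a probe set and 7 were tested, of which 3 were higher and 1 lower in CV (17.3% and 18% of all probe sets) and 2 were higher and 2 lower in FG (21.1% and 20.2% of all). PJVK, the pejvakin gene that is mutated in a hereditary deafness, was higher in CV by 5.40 ± 0.84 (adjusted p = 0.000233) and in FG by 3.63 ± 0.68 (adjusted p = 0.000986), on a probe set named by the list of the study. With PJVK counted, 2 of the 7 tested genes had a probe set named by that list. CIB2, a calcium-binding partner of the transduction channel of hair cells, was higher in CV by 2.62 ± 0.53 (adjusted p = 0.00167) and was the 1 gene of the list whose CV and FG changes differed (3.29 ± 0.68, adjusted p = 0.0397). WHRN, the scaffold whirlin that works with MYO15A, was higher in CV by 1.20 ± 0.35 (adjusted p = 0.0171). CDH23, a tip link cadherin, was lower in CV (-1.14 ± 0.42, adjusted p = 0.0475), and TPRN, of the stereocilium base, was lower in FG (-1.45 ± 0.30, adjusted p = 0.00217).

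Of 9 other unconventional myosins tested, 3 were higher and 3 lower in CV, and 3 higher and 4 lower in FG, with the same background of 17.3% and 18% in CV and 21.1% and 20.2% in FG. The vesicle carriers MYO5A and MYO5C were higher in CV by 3.82 ± 0.91 (adjusted p = 0.0053) and 3.63 ± 0.52 (adjusted p = 0.000135), both on probe sets named by the list of the study. MYO18A was lower in CV (-3.05 ± 0.50, adjusted p = 0.000364), and MYO7B, a brush border myosin, was lower in FG (-1.89 ± 0.28, adjusted p = 0.000139). Of 6 tested genes of nonmuscle myosin 2, 1 was higher and 2 lower in CV (17.3% and 18% of all probe sets), and by limma 0 were higher and 3 lower in FG (21.1% and 20.2% of all). MYH10, a heavy chain whose probe set was named by the list of the study, was higher in CV than in LE by 3.53 ± 0.47 (adjusted p = 6.35e-05) and higher in CV than in FG by 2.39 ± 0.45 (adjusted p = 0.0214). MYL9, a light chain common in contractile cells, was lower in the top than in the bottom (-1.53 ± 0.27, adjusted p = 0.0418).

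Genes with the most similar level pattern were found for each member by Pearson correlation of log2 values over all 28 samples, as a description. ESPN was closest to SMARCA1 (0.990), FAM26A (0.989) and ABI2 (0.988), and FSCN1 to ZRANB2 (0.954), NGFRAP1 (0.950) and MAZ (0.943). MYO6 was closest to SEMA4D (0.883) and YPEL5 (0.876), EZR to MBOAT2 (0.930), PLS1 to CSRNP2 (0.814), PLS3 to KCTD3 (0.906) and VIL1, by probe set MmugDNA.37439, to G6PC3 (0.711). Over the 18 TB samples alone MYO7A was closest to CCDC110 (0.769), HIGD2A (0.759) and TRPM5 (0.758), the last a cation channel of type II taste cells. PLS1 was closest there to LOC714226 (0.905) and ZNF483 (0.902), and ESPN to BSG (0.878). The samples share animals, arrays and tissue groups, and the closest genes were picked from 11467 genes over all samples and from 10554 over TB.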

How the data were processed

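Expression was measured on 28 arrays of laser-dissected macaque tongue. The values the authors deposited are linear intensities per probe set and array, after GC-RMA (background correction and quantile normalization) of all 28 arrays at once. No tool version is stated in the labels or the methods. The labels and the methods name different NuGEN kits. Groups and animals came from the sample labels, and no sample was left out. Probe sets were named by the list of the study or, where it gave none, by the platform annotation, with 5 old symbols updated by hand. The members, the gene lists and the tests were chosen with earlier results of these data known.

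Intensities were log2 transformed, and limma 3.58.1 in R 4.3.3 was fitted to every probe set with 25 units or more in at least 4 samples of the fit. CV, FG and both LE groups (20 samples, 26176 probe sets) and the fractions (8 samples, 21167) were each fitted with the animal as a fixed block, and the full set of 28 (27751) with animal as random effect (estimated correlation 0.0394). The Benjamini-Hochberg adjustment covered every probe set of a fit, and calls were made at 0.05. Tests were two-sided. The pairing comes from the labels, by which tissues of 1 animal share a number. Deviations of same-animal samples from their group means correlated by 0.05 to 0.12 on average, and those of other animals by -0.04 to -0.01. Folds compare geometric means, with values under 25 raised to 25, and read "at least" where this raised the lower group. A gene with several probe sets was represented in lists and similarity searches by the one in the list of the study, otherwise by the brightest on average. The text names every member probe set, up to 4 of the called genes of each list by size of change, and the most correlated genes. Number of arrays limits precision. The scripts were tested on simulated data. Settings tried were another block, no filter, raised low values, median centring, leaving out each animal, pooled LE, animals with all tissues only, and the methods' paired t-test. No sequences or coordinates are given.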

Additional observations from a re-analysis of the deposited data

Results flagged for a closer look

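Dixon's test on linear intensities was applied to 88 groups of member values with at least 1 sample at 25 units. In 11 of these the highest or lowest sample stood far from the rest of its group. By chance the test flags about 1 group in 20 if values are normally distributed, which was not checked. In LE beside FG, animal 1 had the highest EZR MmugDNA.15773 (201 units), MYO6 MmugDNA.15073 (445 units) and MYO7A MmuSTS.1747 (69.3 units). In LE beside CV the same animal had the highest MYO6 MmugDNA.15073 (1136 units). In LE beside FG, animal 2 stood apart in EZR MmugDNA.40595 (818 units), and in FG it stood apart in EZR MmugDNA.15774 (210 units). Animal 5 stood apart in MYO1A in FG and in its LE (33.1 units in both). Animal 4 stood apart in MYO6 MmugDNA.15073 in FG (139 units) and in VIL1 MmugDNA.36159 in CV (146 units). Animal 9 had the lowest FSCN1 in the bottom fraction (645 units).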

How the results depend on the processing

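Each member comparison was recomputed under the alternative settings. Of 1691 recomputed log2 changes 54 had the opposite sign, of which 0 were called in either fit, and none exceeded 0.63 in size. Of 564 recomputed values of called comparisons 50 lost the call, and in 17 of 40 called comparisons at least 1 setting did so. ESPN and FSCN1 kept their calls in CV and FG against LE under every setting, with ESPN changes of 6.09 to 7.56 in CV and 5.83 to 6.77 in FG, and FSCN1 changes of 3.56 to 4.68 and 3.82 to 4.74. Both were named by the list built from probe sets higher in TB on these arrays, so the kept calls are not independent evidence. Lower member probe sets in CV against LE were 8 in the reported fit, 4 to 8 with an animal left out (5 without animal 4, 4 without animal 5) and 3 by the methods' paired t-test after Benjamini-Hochberg. In FG against LE they were 5, 9 with the arrays centred, 3 by the methods' paired t-test. At the fold and unadjusted p limits of the methods that test gave 2 higher and 2 lower member probe sets in each of CV and FG, beside 2061 higher and 1799 lower of all probe sets in CV and 1838 and 1019 in FG. Each papilla type was set against its own LE here, with the filter of this report. The study names LE without separating it by papilla and required a mean of 25 units in TB. Without the replicate block 1 member, PLS1, was called higher in the top than in the bottom of CV TB, and VIL1 MmugDNA.40148 lost its call in CV (-1.12, adjusted p = 0.0576); the block changed no other member call against LE. Centring on the array median moved all changes by -0.22 (CV against LE), -0.44 (FG against LE), -0.13 (top against bottom), -0.54 (top against LE) and -0.40 (bottom against LE), and the higher share of all calls from 51.1% to 30.6% in FG against LE, from 56.5% to 34.1% in top and from 54.9% to 37.6% in bottom against LE, from 76.7% to 52.3% between LE groups, from 31.1% to 48.5% in the difference of changes and from 53.4% to 41.1% between fractions. Its cause was not tested. The sign turns follow, as log2 changes. With an animal left out, CV against FG ranged from -0.02 to 0.40 for ESPN, -0.70 to 0.04 for EZR MmugDNA.15773, -0.70 to 0.63 for MYO7A and -0.57 to 0.21 for VIL1 MmuSTS.4476. Top against bottom ranged from -0.25 to 0.27 for EZR MmugDNA.15773, -0.29 to 0.09 for EZR MmugDNA.15774, -0.33 to 0.40 for FSCN1 and -0.42 to 0.54 for VIL1 MmugDNA.37439. FG against LE ranged from -1.24 to 0.02 for EZR MmugDNA.15773 and -0.35 to 0.21 for EZR MmugDNA.40595, and bottom against LE from -0.22 to 0.06 for the latter. CV against LE ranged from -0.15 to 0.70 for VIL1 MmugDNA.37439. Between LE groups the ranges were -0.30 to 0.68 for PLS3 Mmu.2800, -0.37 to 0.04 for VIL1 Mmu.1218 and -0.42 to 0.03 for VIL1 MmugDNA.40148. The CV change minus the FG change ranged from -0.48 to 0.40 for FSCN1, -0.18 to 0.98 for MYO7A, -0.13 to 0.29 for VIL1 Mmu.1218 and -0.49 to 0.13 for VIL1 MmugDNA.40148. With the arrays centred, top against bottom was -0.08 for EZR MmugDNA.15773, -0.01 for EZR MmugDNA.21945, -0.02 for FSCN1, -0.02 for PLS3 MmugDNA.5663 and -0.09 for VIL1 MmugDNA.37439, LE against LE was -0.03 for EZR MmugDNA.21945, and the difference of changes was 0.08 for VIL1 MmugDNA.40148. With low values raised to 25, CV against FG was 0.31 for MYO7A, 0.02 for PLS3 Mmu.2800 and 0.09 for VIL1 MmugDNA.40148, whose difference of changes was 0.33. With LE as 1 group, FG against LE was 0.06 for EZR MmugDNA.40595, CV against LE was -0.30 for VIL1 MmugDNA.37439 and bottom against LE was 0.01 for PLS1. With animals having all tissues only, these were 0.08 for EZR MmugDNA.40595 in FG against LE, -0.10 for FSCN1 in the difference of changes, and 0.05 for MYO7A and 0.28 for VIL1 MmuSTS.4476 in CV against FG, and the methods' paired t-test gave 0.05 and 0.28 for these last. VIL1 MmuSTS.4476 was 0.31 there without the replicate block. Values under 25 units, where VIL1, MYO7A and MYO1A mostly lie, limit what these arrays resolve.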
